A study of Arabidopsis thaliana with 12 samples.

Results

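The WRKY family of transcription factors was followed in rosettes of Arabidopsis thaliana of 4 genotypes, with 3 libraries of polyadenylated RNA each. The family was followed through a list of 58 loci that carry a numbered WRKY name, all of which are in the table of 33602 loci. WRKY numbers absent from this list were not examined, so counts and shares for the family and its groups refer to the list. It was sorted by protein structure into group I (12 loci), IIa (3), IIb (8), IIc (12), IId (7), IIe (7) and III (9). Group III of this list holds WRKY30, WRKY38, WRKY41, WRKY46, WRKY53, WRKY54, WRKY55, WRKY62 and WRKY70, and it is set beside the 49 other members below. The genotypes were Col-0, the wild type, which the sample titles call the parent without saying whether it is the line in which ceh1 was isolated, the mutants ceh1 and eds16, and the double mutant ceh1/eds16. ceh1 is a mutant of HDS, an enzyme of the isoprenoid pathway in plastids, and it accumulates the substrate of that enzyme, methyl-erythritol cyclodiphosphate (MEcPP). eds16 is a mutant of ICS1, the isochorismate synthase that makes most of the salicylic acid formed under stress. The double mutant carries both mutations, and the sources used here name no allele. Plants of 3 weeks were grown in soil with 16 h of light and 8 h of dark, and the 3 libraries of a genotype are described as biological replicates. The comparisons below ask how the WRKY response to the ceh1 mutation differs with and without a working ICS1.

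WRKY proteins bind DNA through a domain with a conserved WRKY peptide and a zinc finger, and their usual site is the W-box, with the core TTGAC. Many WRKY genes are switched on within minutes to hours of an attack by microbes, of wounding or of salicylic acid treatment, and many carry W-boxes in their own promoters. Some members promote defence and others restrain it, and WRKY70 and its neighbours in group III have been studied as links between salicylic acid, jasmonate and leaf senescence. Group I proteins have a pair of WRKY domains, group II and group III proteins have a single one, and group III differs from group II in the spacing of its zinc finger.

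Values below are read counts that the authors divided by a size factor for each library, called normalized counts, and are given in the order of replicates 1, 2 and 3 unless a mean ± SD of n = 3 is stated. Libraries held 4.99 to 18.08 M reads in genes, and 1 read was worth 0.412 to 1.78 normalized counts, so values under about 5 rest on a few reads. Tests used limma with log2(normalized count + 1) as the measure in the 18289 genes whose mean was at least 10, with Benjamini-Hochberg adjustment over all of them, and a member was called at an adjusted p under 0.05. A value given as x ± y in brackets after the counts is a log2 fold change and its standard error (SE). The pseudocount shrinks the fold changes of genes with low counts. Folds are ratios of mean normalized counts. Where libraries are said to overlap or not, this describes the values of members already picked by a test. The share of all genes without overlap was not counted, so it adds no support to a call. ICS1, the gene hit in eds16, averaged 245 ± 27.6 (SD, n = 3) in the wild type and 666 ± 31.2 in ceh1, but 15.2 ± 4.47 and 21 ± 7.06 in the 2 lines with eds16, so no library went against its label there. Replicate 3 of ceh1/eds16 was unlike its fellow libraries, and differed from the other pair by 23.5 and 23.6 times the squared difference that read sampling gives, while every pair without it lay at 2.48 to 8.9. The leaf markers RBCS1A, RCA, CAB1 and CA1 were abundant in all libraries, with summed levels of 259819 to 294163 in Col-0 and 113862 to 134582 in ceh1, and the seed storage gene SESA1 was at 0 in all of them.

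Of the 58 members, 50 passed the filter on low values, including all 9 of group III and 41 of the 49 others. The 8 below it peaked at 1.24 (WRKY43), 3.11 (WRKY34), 3.99 (WRKY9), 7.97 (WRKY72), 11.5 (WRKY35), 11.9 (WRKY31), 12.9 (WRKY74) and 19.8 (WRKY61) in their highest library. WRKY61, with a mean of 8.54 over all libraries, lay just outside the filter and WRKY65, with 10.99, just inside. In a fit with no filter WRKY9 (log2 fold change 2.04), WRKY31 (2.25), WRKY61 (2.53) and WRKY72 (2.51) were higher in ceh1 than in Col-0, with limma adjusted p of 0.000854, 0.00311, 0.000298 and 0.000123. A member that is high in only some genotypes can pass through them alone, so the counts below are given over all 58. WRKY62 and WRKY38 are such members and passed through the ceh1 libraries. WRKY62 averaged 2.25 in Col-0, 0.32 in eds16 and 3.21 in ceh1/eds16, against 46.1 in ceh1. WRKY38 averaged 13.7, 5.1 and 9.68 in the same order, against 526 in ceh1. WRKY28, WRKY29, WRKY30, WRKY36, WRKY51, WRKY55, WRKY65 and WRKY75 averaged under 10 in both Col-0 and eds16. These passed through ceh1 and ceh1/eds16. The place of all these members in the counts is thus not independent of their rise in the lines with ceh1. WRKY30, WRKY38, WRKY55 and WRKY62 among them are in group III.

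The promoters of the members that the results turn on are shown first, as the 250 bases before the annotated start of each gene, read 5′ to 3′ on the gene's strand from the RefSeq genome TAIR10.1. The submitters' notes name the build TAIR10. Capitals mark the W-box core, TTGAC, or its reverse complement, GTCAA, which is the same core on the other strand. WRKY38, WRKY62 and WRKY51 are shown because their high levels in ceh1 were the most reduced without ICS1, and WRKY30, WRKY46 and WRKY75 because theirs did not pass the test for a difference.
WRKY38 (group III, chr5:7496991-7497240, minus strand): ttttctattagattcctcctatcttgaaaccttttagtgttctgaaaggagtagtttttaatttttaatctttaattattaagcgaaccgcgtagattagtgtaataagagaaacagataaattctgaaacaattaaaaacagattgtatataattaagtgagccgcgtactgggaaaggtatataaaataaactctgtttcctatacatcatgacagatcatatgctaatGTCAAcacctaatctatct
WRKY62 (group III, chr5:352096-352345, minus strand): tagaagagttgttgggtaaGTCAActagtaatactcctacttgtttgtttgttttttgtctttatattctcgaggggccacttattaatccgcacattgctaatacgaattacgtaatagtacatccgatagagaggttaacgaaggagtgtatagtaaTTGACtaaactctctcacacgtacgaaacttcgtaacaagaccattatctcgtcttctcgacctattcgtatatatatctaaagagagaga
WRKY51 (group IIc, chr5:25907997-25908246, plus strand): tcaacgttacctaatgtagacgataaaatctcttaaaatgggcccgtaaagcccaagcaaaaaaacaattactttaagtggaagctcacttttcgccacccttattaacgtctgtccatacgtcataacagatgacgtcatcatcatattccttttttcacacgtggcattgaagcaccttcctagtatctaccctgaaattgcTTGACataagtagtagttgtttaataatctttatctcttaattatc
WRKY30 (group III, chr5:8154711-8154960, minus strand): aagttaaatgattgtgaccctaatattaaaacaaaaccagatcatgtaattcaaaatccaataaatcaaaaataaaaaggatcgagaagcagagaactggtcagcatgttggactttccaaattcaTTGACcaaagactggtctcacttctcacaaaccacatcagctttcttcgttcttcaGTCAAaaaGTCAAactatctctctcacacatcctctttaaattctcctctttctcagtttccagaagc
WRKY46 (group III, chr2:19044956-19045205, minus strand): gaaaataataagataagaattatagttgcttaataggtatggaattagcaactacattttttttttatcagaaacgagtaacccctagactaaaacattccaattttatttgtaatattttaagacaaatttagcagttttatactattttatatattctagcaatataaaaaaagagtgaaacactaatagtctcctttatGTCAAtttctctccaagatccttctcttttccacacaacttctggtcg
WRKY75 (group IIc, chr5:4151202-4151451, minus strand): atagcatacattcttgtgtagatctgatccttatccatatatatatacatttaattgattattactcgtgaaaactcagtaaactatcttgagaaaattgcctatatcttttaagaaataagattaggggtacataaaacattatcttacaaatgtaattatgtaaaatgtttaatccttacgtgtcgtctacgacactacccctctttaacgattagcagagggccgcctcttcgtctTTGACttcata
All 6 windows held the core at least once. WRKY30 had 3 matches, WRKY62 had 2, and the other 4 had 1 each.

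Over the family the core TTGAC, on either strand, was in 30 of 58 windows, or 51.7%. It was in 8 of the 9 group III windows (88.9%) and in 22 of the 49 others (44.9%), and the share over the windows of all 27443 protein-coding genes was 44.9%. WRKY54 was the group III gene whose window held none. The longer W-box TTGACC or TTGACT was in 5 of 9 group III windows, 16 of the 49 others and 28.4% of all windows. The sequence TGACG, the core of sites bound by TGA factors, which act with the salicylic acid receptor NPR1, was in 1 of 9 group III windows (WRKY70, with 2 matches), in 11 of the 49 others and in 18.6% of all. TGACG shares its first bases with the end of TTGAC, so a TTGACG counts for both. WRKY51 had 3 matches to it, of which a pair comes from the palindrome tgacgtca seen in its window. These are matches of letters in a short window and no measure of binding.

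In ceh1 35 of the 58 members were higher than in Col-0 and 0 were lower, with 30 of the 35 at least 2-fold higher. Of all tested genes 25.2% were called higher, 9.96% at least 2-fold higher, and 25% lower. With libraries scaled to equal totals, which raises the median of all genes to 0.238 on the log2 scale, 39 members were higher and 0 lower, and the share of higher among the genes called rose from 50.3% to 71.9%. All 9 group III members rose, and 26 of the 49 others. The median log2 fold change was 1.82 over the 50 tested members, 2.83 in group III, 1.46 in the others and 0.008 over all tested genes. For the direction lower, 0 members had an unadjusted p under 0.05 in limma, and edgeR and DESeq2 on the recovered reads also called 0 lower, with 35 and 34 higher. Over all tested genes 10240 had an unadjusted limma p under 0.05 in either direction. There edgeR called 4742 lower and 4567 higher, and DESeq2 4619 and 4502. By group, the count of members that rose was 3 of 3 in IIa, 4 of 8 in IIb, 7 of 12 in IIc, 4 of 7 in IId, 2 of 7 in IIe and 6 of 12 in I.

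**Figure D1:**
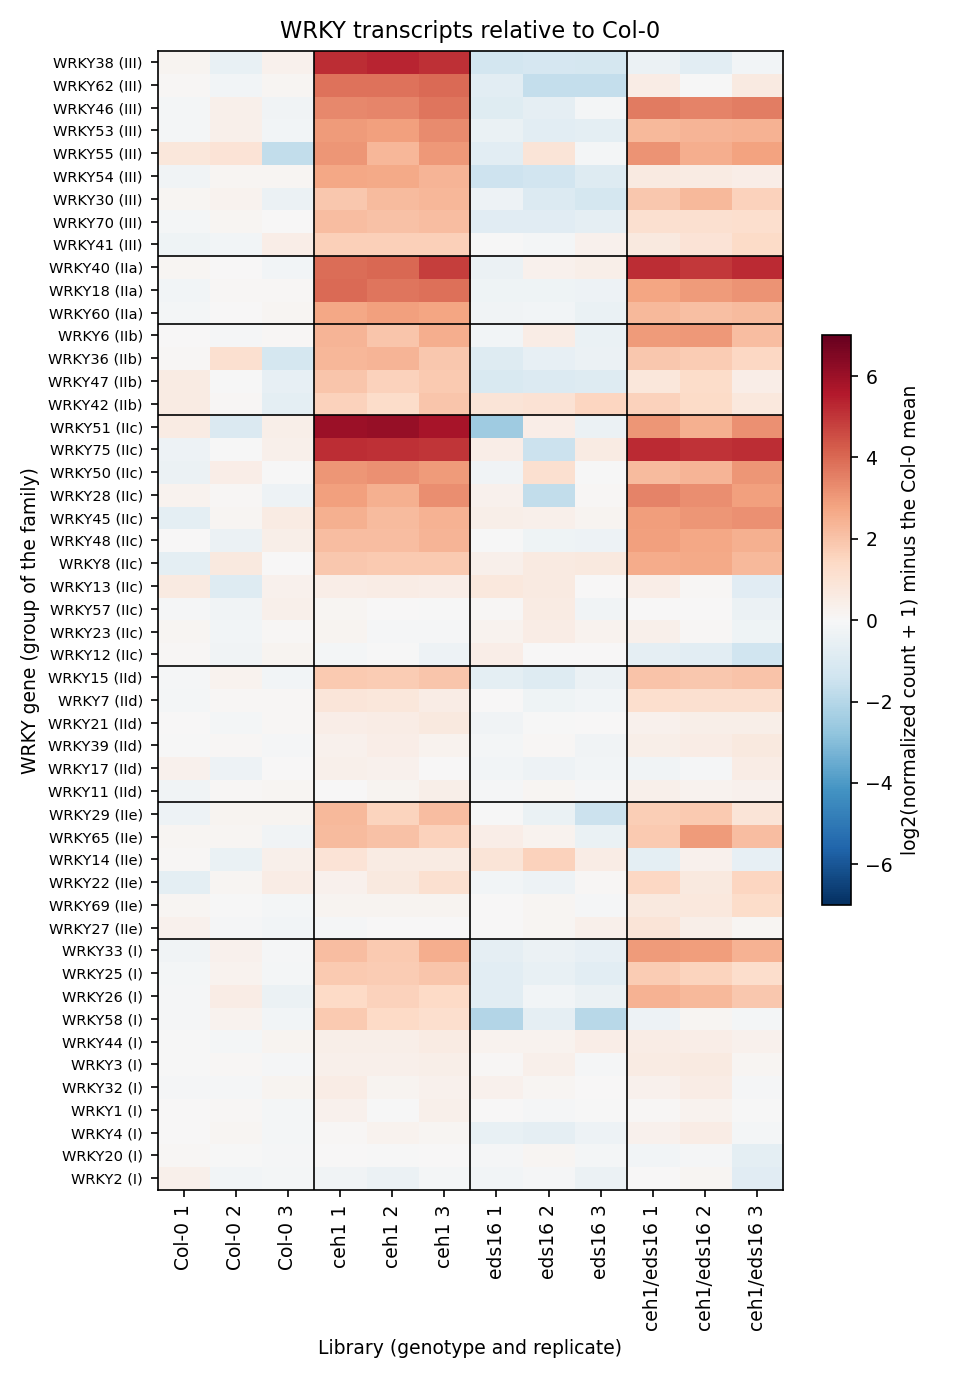
Each cell is the log2(normalized count + 1) of 1 WRKY gene (rows, with the group of the family) in 1 library (columns), minus the mean of the 3 Col-0 libraries, for the 50 members that passed the filter. All 9 group III rows are red in the ceh1 columns, and in the ceh1/eds16 columns WRKY38 and WRKY62 are near white while WRKY46 remains dark.

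WRKY38 and WRKY62, which bind histone deacetylase HDA19 and restrain basal defence, had the steepest rises of group III. WRKY38 (AT5G22570) read 15.5, 8.92 and 16.7 in the Col-0 libraries and 507, 575 and 496 in ceh1, a 38.4-fold rise (5.21 ± 0.26, limma adjusted p = 2.29e-10). WRKY62 (AT5G01900) read 2.38, 1.78 and 2.58 in Col-0 and 44.1, 44.4 and 49.8 in ceh1 (3.87 ± 0.45, adjusted p = 2.7e-06). For both, every ceh1 library lay far above every Col-0 library. In the other backgrounds neither came near that level: WRKY38 read 4.8, 5.32 and 5.18 in eds16 and 9.78, 7.55 and 11.7 in the double mutant, and WRKY62 read 0.96, 0 and 0 and 3.56, 2.16 and 3.9.

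WRKY46 and WRKY53, which act with WRKY70 in basal resistance, had the next largest rises of the group. WRKY46, also studied in drought, read 113, 155 and 104 in Col-0 and 1245, 1303 and 1676 in ceh1 (3.5 ± 0.18, limma adjusted p = 3.11e-10). WRKY53, a regulator of leaf senescence, read 41.6, 58.9 and 41.2 in Col-0 and 370.3, 348 and 476 in ceh1 (3.06 ± 0.17, adjusted p = 9.58e-10). The ceh1 libraries did not overlap those of Col-0 for either gene, and replicate 3 of ceh1 was the highest for both. WRKY53 overlaps a gene on the opposite strand, 3xHMG-box2, over 341 of its 1613 bases, and the sources used here do not say whether the authors counted by strand. The partner's mean was 492.3 in Col-0 and 763.7 in ceh1, and its part in the WRKY53 count was not tested.

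WRKY70 and WRKY54 are close relatives that act in salicylic acid signalling and hold back senescence. WRKY70 (AT3G56400) read 699, 831 and 764 in Col-0 and 3443, 3196 and 3385 in ceh1 (2.13 ± 0.11, limma adjusted p = 2.29e-10). WRKY54 (AT2G40750) read 147, 193 and 198 in Col-0 and 1154, 1117 and 943 in ceh1 (2.58 ± 0.16, adjusted p = 2.51e-09). Both were several-fold higher in every ceh1 library than in any Col-0 library. WRKY54 lies next to WRKY55 on chromosome 2, with 919 bases between their facing 3′ ends (WRKY55 at 16997078 to 16999499 on the plus strand, WRKY54 at 17000419 to 17002528 on the minus strand, TAIR10.1).

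The remaining group III genes had few reads. WRKY55 (AT2G40740), which promotes senescence and defence, read 4.76, 5.35 and 0 in Col-0 and 27.6, 15.9 and 25.9 in ceh1 (2.83 ± 0.60, limma adjusted p = 0.000997). WRKY30 (AT5G24110), a gene tied to oxidative stress tolerance, read 9.51, 10.7 and 6.44 and 35.5, 43.7 and 47.8 (2.15 ± 0.32, adjusted p = 3.22e-05), and WRKY41 (AT4G11070), known from resistance to Pseudomonas and from seed dormancy, read 13.1, 14.3 and 23.2 and 53.2, 54.3 and 54.8 (1.67 ± 0.26, adjusted p = 6.3e-05). All 3 rose without overlap between the groups, and WRKY55 varied most, with no read in replicate 3 of Col-0. WRKY41 overlaps 3xHMG-box1 on the opposite strand over 517 bases, and that gene's mean was 157.4 in Col-0 and 191.3 in ceh1. Its part in the WRKY41 count was not tested.

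Outside group III the widest rises were in groups IIc and IIa. WRKY51, which with WRKY50 represses jasmonate responses under salicylic acid, had the largest log2 fold change of the family and of all 18289 tested genes: it read 7.13, 1.78 and 6.44 in Col-0 and 351, 382 and 302 in ceh1 (5.96 ± 0.55, limma adjusted p = 1.98e-07). WRKY75, known from phosphate starvation and senescence, read 1.19, 1.78 and 2.58 in Col-0 and 98.6, 97.4 and 87.7 in ceh1 (5.09 ± 0.43, adjusted p = 6.92e-08). WRKY50 (AT5G26170) read 20.2, 37.5 and 27 and 244, 258 and 220.3 (3.09 ± 0.31, adjusted p = 4.7e-07). For WRKY51 and WRKY75 the Col-0 libraries hold only 12 and 4 reads in all, so the size of the fold is loose while the groups are far apart. WRKY28 (AT4G18170), whose product can bind the ICS1 promoter, read 8.32, 7.14 and 5.15 in Col-0 and 54.9, 42.4 and 73.8 in ceh1 (2.87 ± 0.42, adjusted p = 3.46e-05).

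The 3 group IIa genes, WRKY18, WRKY40 and WRKY60, encode proteins that pair with each other and are known for restraining defence. WRKY18 (AT4G31800) read 55.9, 69.6 and 69.5 in Col-0 and 1012, 894 and 958 in ceh1 (3.86 ± 0.14, limma adjusted p = 1.85e-11). WRKY40 (AT1G80840) read 21.4, 19.6 and 16.7 and 299, 327 and 571 (4.25 ± 0.24, adjusted p = 9.08e-10). WRKY60 (AT2G25000) read 53.5, 60.7 and 64.4 and 393, 442 and 416 (2.79 ± 0.14, adjusted p = 1.91e-10). None of the 3 overlapped between the genotypes, and replicate 3 of ceh1 was well above the others for WRKY40 alone.

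Group I split. WRKY33, which directs camalexin synthesis and resistance to necrotrophic fungi, read 268, 399.7 and 303 in Col-0 and 1416, 1157 and 1879 in ceh1 (2.19 ± 0.19, limma adjusted p = 8.17e-08). WRKY25 (AT2G30250) read 272, 353 and 264 and 1034, 1013 and 1144 (1.85 ± 0.15, adjusted p = 4.79e-08), and WRKY26 (AT5G07100) read 156, 241 and 125 and 440.0, 521 and 442 (1.47 ± 0.21, adjusted p = 2.3e-05). These 3, which act together in heat tolerance, rose clear of Col-0 in every library. WRKY58 (AT3G01080), a gene that NPR1 activates, read 14.3, 17.8 and 12.9 and 54.4, 41.1 and 34.9 (1.46 ± 0.36, adjusted p = 0.00316). WRKY3 and WRKY44 rose by less than 0.5 on the log2 scale, and the other 5 tested members of the group, WRKY1, WRKY2, WRKY4, WRKY20 and WRKY32, were not called, with log2 fold changes of -0.26 to 0.35.

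The 4 tested IIb genes, WRKY6, WRKY36, WRKY42 and WRKY47, rose by 1.61 to 2.29 on the log2 scale, and WRKY47 (AT4G01720) read 65.4, 42.8 and 28.3 in Col-0 and 165, 135 and 155 in ceh1 (1.79 ± 0.26, limma adjusted p = 2.6e-05). In group IId, whose proteins bind calmodulin, WRKY15 stood out at 248, 312 and 225 in Col-0 and 912, 893 and 998 in ceh1 (1.84 ± 0.14, adjusted p = 2.69e-08), while WRKY7, WRKY21 and WRKY39 rose by 0.34 to 0.72. In group IIe WRKY29, which acts downstream of flagellin sensing, rose by 2 and WRKY65 by 1.97, and WRKY14, WRKY22, WRKY27 and WRKY69 were not called. The calls for WRKY3, WRKY39 and WRKY44 are the 3 of the 35 that did not hold throughout: without replicate 1 of Col-0 their adjusted p were 0.0908, 0.0758 and 0.0853, and without replicate 1 of ceh1 0.0777, 0.0704 and 0.078. The same calls were lost without replicate 2 of ceh1 (adjusted p of 0.0653, 0.156 and 0.071). WRKY3 and WRKY39 were also lost without replicate 3 of Col-0 (0.093 and 0.101), WRKY39 and WRKY44 without replicate 2 of Col-0 (0.0517 and 0.108), and WRKY3 and WRKY44 without replicate 3 of ceh1 (0.0791 and 0.113). WRKY22 was called without replicate 3 of Col-0 (0.95, adjusted p = 0.0364) and WRKY32 without replicate 3 of ceh1/eds16 (0.35, 0.0369), where neither passed with all libraries.

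**Figure D2:**
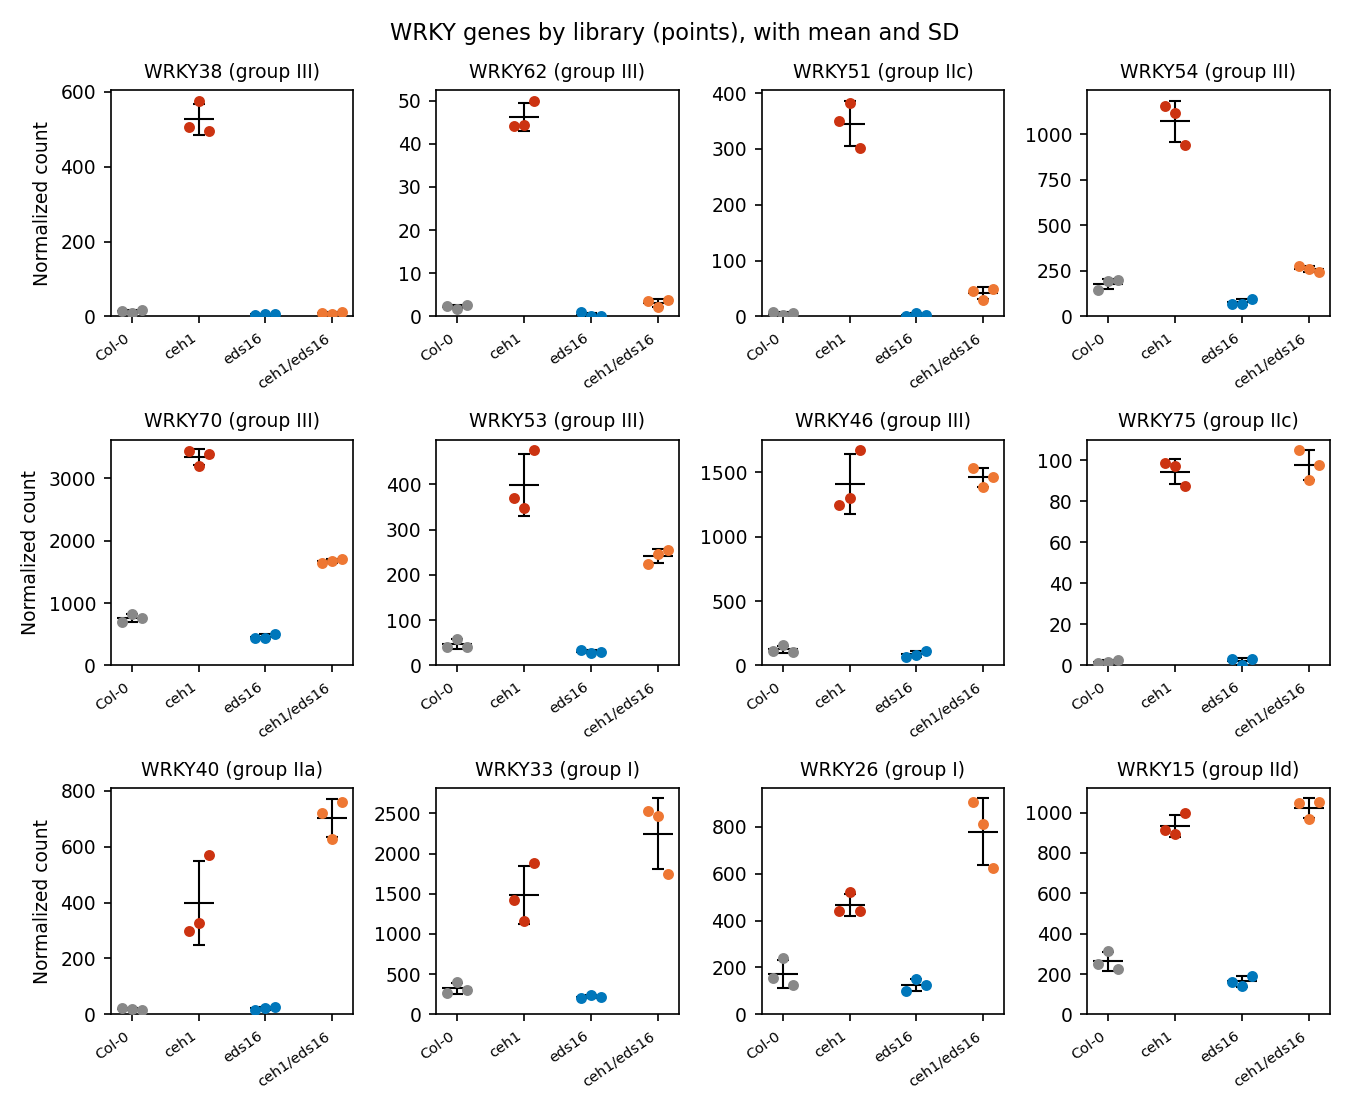
Normalized counts (vertical axes, from 0) of 12 WRKY genes in each library (points), with the mean and SD of the 3 libraries of each genotype (horizontal and vertical bars). WRKY38 and WRKY62 are high in ceh1 alone, WRKY51 is highest in ceh1, WRKY46 and WRKY75 reach like levels in ceh1 and ceh1/eds16, and WRKY40, WRKY33 and WRKY26 have higher means in ceh1/eds16 than in ceh1.

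The same contrast was then made without a working ICS1, between ceh1/eds16 and eds16, which shares no library with the first. Again 35 of the 58 members were higher, and 2, WRKY12 and WRKY14, were lower. Over all tested genes 22.1% were higher and 20.2% lower, and 29 members and 10% of all genes were at least 2-fold higher. With equal totals 37 members were higher and 2 lower, and the share of higher among all called genes went from 52.2% to 63.9% as the median of all genes moved to 0.115. All 9 group III genes were called higher, and 26 of the 49 others, and the median log2 fold change was 1.74 over the family, 1.87 in group III, 1.38 in the others and 0.005 over all tested genes. The members that rose in both contrasts numbered 32, or 91.4% of each list. WRKY3, WRKY42 and WRKY44 were called in the first alone and WRKY4, WRKY22 and WRKY69 in the second alone, and none of these 6 passed the test for a difference between the contrasts. The share of all tested genes that rose in both was 16.3%. WRKY3 was also called in the second contrast without replicate 2 of eds16 (0.44, adjusted p = 0.0347) or replicate 3 of ceh1/eds16 (0.49, 0.00323), and WRKY20 was called lower there without replicate 2 of ceh1/eds16 (-0.4, 0.0443).

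The largest rises without ICS1 were those of WRKY75, WRKY40 and WRKY46. WRKY75 (AT5G13080) read 2.88, 0 and 3.11 in eds16 and 105, 90.6 and 97.6 in the double mutant (5.29 ± 0.43, limma adjusted p = 2.74e-08). WRKY40 read 14.4, 23.9 and 25.9 and 719, 626 and 759.5 (5.01 ± 0.24, adjusted p = 6.02e-11), and WRKY46 (AT2G46400) read 68.1, 79.8 and 111 and 1537, 1391 and 1461 (4.1 ± 0.18, adjusted p = 2.48e-11). These ceh1/eds16 libraries reached or passed the levels of ceh1 itself. WRKY28 read 8.64, 1.33 and 7.25 in eds16 and 84.5, 72.3 and 55.6 in the double mutant (3.63 ± 0.42, adjusted p = 2.32e-06).

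WRKY18, WRKY60 and WRKY53 rose to levels under those of ceh1. WRKY18 read 51.8, 51.9 and 49.7 in eds16 and 437, 510.3 and 584 in the double mutant (3.28 ± 0.14, limma adjusted p = 1.68e-11). WRKY60 read 49.9, 51.9 and 43.5 and 292, 262 and 275 (2.49 ± 0.14, adjusted p = 2.78e-10), and WRKY53 (AT4G23810) read 33.6, 27.9 and 29 and 224, 246 and 254 (2.96 ± 0.17, adjusted p = 5.53e-10). In all 3 the double mutant lay above every eds16 library and below every ceh1 library. WRKY50 read 23, 59.9 and 26.9 in eds16 and 129.8, 149 and 241 in the double mutant (2.29 ± 0.31, adjusted p = 1.13e-05), with replicate 3 of ceh1/eds16 within the range of ceh1 and the other pair below it.

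WRKY33, WRKY26 and WRKY15 ended within or above the range of their ceh1 libraries, and WRKY25 below it. WRKY33 (AT2G38470) read 203, 242 and 217 in eds16 and 2535, 2462 and 1742 in the double mutant (3.33 ± 0.19, limma adjusted p = 3.36e-10), and WRKY26 read 98.8, 149 and 125 and 904, 810.2 and 623 (2.64 ± 0.21, adjusted p = 2.32e-08). Replicate 3 of ceh1/eds16 was the lowest of its group for both, and lay below the highest ceh1 library for WRKY33. WRKY25 read 174, 204 and 173 and 1000.5, 878 and 681 (2.2 ± 0.15, adjusted p = 3.57e-09), and WRKY15 (AT2G23320) read 159, 138 and 192 and 1049, 966 and 1053 (2.65 ± 0.14, adjusted p = 1.93e-10). All 4 genes were clear of eds16 in every library.

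The remaining group III genes were called higher as well. WRKY70 read 432, 444 and 501 in eds16 and 1649.7, 1668 and 1708 in the double mutant (1.87 ± 0.11, limma adjusted p = 4.03e-10), and WRKY54 read 65.2, 70.5 and 96.3 and 277, 261 and 243 (1.76 ± 0.16, adjusted p = 1.19e-07). WRKY30 read 6.72, 3.99 and 3.11 and 35.6, 45.3 and 28.3 (2.76 ± 0.32, adjusted p = 1.81e-06), and WRKY55 read 0.96, 5.32 and 2.07 and 28.5, 18.3 and 22.5 (2.82 ± 0.60, adjusted p = 0.00109). WRKY41 read 16.3, 14.6 and 20.7 and 26.7, 32.4 and 43 (0.93 ± 0.26, adjusted p = 0.00846). All 5 were without overlap between eds16 and ceh1/eds16. WRKY38 and WRKY62 were called at the smallest counts: WRKY38 had 14 reads in the 3 eds16 libraries and 30 in the ceh1/eds16 libraries (0.79 ± 0.26, adjusted p = 0.0206), and WRKY62 had 1 read against 10, a ratio of 8.97 after scaling with a 95% interval of 1.28 to 389 from counting error alone (1.72 ± 0.45, adjusted p = 0.00503). The WRKY38 call was lost without replicate 1 of eds16 (adjusted p = 0.0538) or replicate 3 of ceh1/eds16 (adjusted p = 0.0668), and in edgeR (0.0861) and DESeq2 (0.116), and both were lost where only the groups compared were fitted (0.127 and 0.0561).

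WRKY51, WRKY58 and WRKY47 rose to levels between those of eds16 and ceh1. WRKY51 (AT5G64810) read 0, 6.65 and 3.11 in eds16 and 46.2, 30.2 and 49.8 in the double mutant (3.74 ± 0.55, limma adjusted p = 2.98e-05), WRKY58 read 2.88, 9.31 and 3.11 and 11.6, 16.2 and 13.7 (1.42 ± 0.36, adjusted p = 0.00431), and WRKY47 read 20.2, 21.3 and 22.8 and 76.5, 105 and 60.5 (1.83 ± 0.26, adjusted p = 1.85e-05). Each was above eds16 in every library and below ceh1 in every library. WRKY69 (AT3G58710) read 39.3, 41.2 and 35.2 in eds16 and 60.5, 63.7 and 92.7 in the double mutant (0.86 ± 0.20, adjusted p = 0.00184), against 41.6, 37.5 and 34.8 in Col-0 and 42.9, 43.1 and 43.9 in ceh1. WRKY69 overlaps a gene on the opposite strand over 373 bases, whose mean was 88 in eds16 and 41.8 in ceh1/eds16, and a long non-coding RNA gene over 345 bases, whose values are not used here. Their part in the WRKY69 count was not tested. In all, 12 members are overlapped by a gene on the opposite strand, among them WRKY40 over 51 bases and WRKY33 over 26 by a protein-coding gene and over 272 by a gene of a long non-coding RNA, whose values are not used here.

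The 2 genes that were lower both had few reads. WRKY12 (AT2G44745), which represses secondary walls in pith, read 24, 17.3 and 17.6 in eds16 and 10.7, 9.71 and 5.86 in the double mutant, with 17.8, 14.3 and 19.3 in the wild type and 15.7, 16.6 and 13 for ceh1. No library overlapped between eds16 and ceh1/eds16, and it fell by 1.1 ± 0.30 on the log2 scale (limma adjusted p = 0.00669). The secondary wall genes CESA4, CESA7 and CESA8 were lower in the same libraries: their summed level was 253 to 325 in eds16 and 102 to 140.3 in the double mutant, and 228 to 418 in Col-0 and 102 to 137 in ceh1, with none of the 3 at 0. Their part in the WRKY12 result was not tested, and in these whole rosettes fewer cells of a type and less RNA per cell cannot be told apart. WRKY14 (AT1G30650) read 15.4, 25.3 and 11.4 in eds16 and 4.45, 9.71 and 4.88 in the double mutant, with 8.32, 5.35 and 10.3 in the wild type and 15.7, 11.9 and 12 for ceh1, and fell by 1.32 ± 0.39 (adjusted p = 0.0111). It was highest in replicate 2 of eds16, without which the change was -1.02 and the call was lost (adjusted p = 0.0678).

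**Figure D3:**
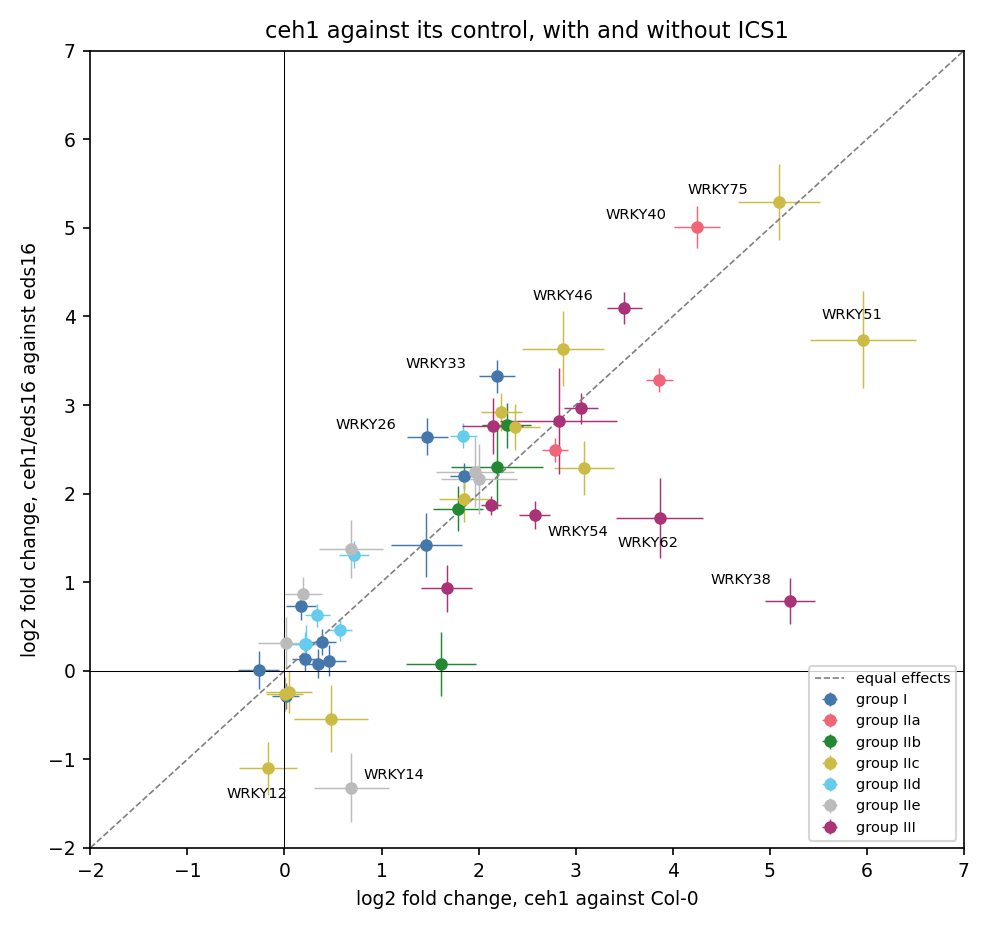
Log2 fold change of each of the 50 tested WRKY genes in ceh1 against Col-0 (horizontal axis) and in ceh1/eds16 against eds16 (vertical axis), with SE bars, coloured by group of the family, and a dashed line for equal values. WRKY38 lies far below the line at 5.21 and 0.79, WRKY62, WRKY51 and WRKY54 lie below it with smaller gaps, and WRKY33 and WRKY26 lie above it.

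The difference between the 2 contrasts was tested as the interaction of ceh1 and eds16, where a negative value means a lower log2 fold change without ICS1. It was called for 6 members, 3 positive (WRKY15, WRKY26 and WRKY33) and 3 negative (WRKY38, WRKY54 and WRKY14), while 3.08% of all tested genes were positive and 1.79% negative. That background moved with single libraries: the 564 positive and 327 negative genes became 1684 and 1329 without replicate 3 of ceh1/eds16, 334 and 164 without its replicate 2, 243 and 105 or 241 and 114 without replicate 1 or 2 of ceh1, 280 and 152 without replicate 2 of Col-0, and 275 and 136 or 325 and 144 without replicate 1 or 2 of eds16. Without replicate 1 of Col-0 the negative genes numbered 192. By an unadjusted p under 0.05 the counts were 9 and 8, and edgeR and DESeq2 called 3 and 3. Of all 18289 tested genes 3985 had an unadjusted limma p under 0.05 in either direction. Over the same genes edgeR called 547 positive and 333 negative, and DESeq2 820 and 493. Group III had 2 of the negative calls among 9 genes and the other 49 members had 1. WRKY38 had the largest interaction of the family, -4.41 ± 0.37 (adjusted p = 7.07e-06, limma), and it is the 1 call that held under every alternative. WRKY62 at -2.14 ± 0.64 (adjusted p = 0.0624) and WRKY51 at -2.22 ± 0.78 (adjusted p = 0.108) did not pass. WRKY62 had 5 reads in the 3 Col-0 libraries and 1 in eds16, and WRKY51 had 12 and 8, and with a pseudocount of 5 in place of 1 both passed, at -2.19 (adjusted p = 0.000965) and -2.58 (0.00181). WRKY51 also passed in DESeq2 (-2.13, adjusted p = 0.0443), and WRKY62 without the variance trend (-2.14, 0.00946) and with equal totals (-2.3, 0.0456). WRKY51 also passed without replicate 1 of eds16 (-3.05, adjusted p = 0.00902), its library with no read. Without replicate 3 of ceh1/eds16 WRKY62 (-2.27, adjusted p = 0.0413), WRKY51 (-2.36, 0.0459) and WRKY4 (0.74, 0.0117) passed as well, and so did WRKY18 (-0.68, adjusted p = 0.0209, against -0.58 and 0.0989 with it).

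The other 5 interactions were near the threshold. WRKY33 stood at 1.14 ± 0.26 (limma adjusted p = 0.0204), WRKY15 at 0.81 ± 0.20 (adjusted p = 0.0282), WRKY26 at 1.17 ± 0.30 (adjusted p = 0.0332), WRKY14 at -2.01 ± 0.55 (adjusted p = 0.045) and WRKY54 at -0.82 ± 0.23 (adjusted p = 0.0457). Leaving out replicate 2 of Col-0 or replicate 1 or 2 of ceh1 ended all 5 calls, with adjusted p of 0.0565 to 0.141, and leaving out replicate 1 of eds16 did too (0.0502 to 0.0984). Among the omissions WRKY33 was lost in those 4 cases only, at values of 0.97 to 1.12. It was also lost in limma without the variance trend (1.14, adjusted p = 0.0619). WRKY54 was also lost without replicate 1 of Col-0 (-0.69), replicates 2 (-0.88) or 3 (-0.66) of eds16, or replicates 1 (-0.87) or 2 (-0.83) of ceh1/eds16. WRKY14 was also lost without replicate 1 of Col-0 (-2.05), replicate 3 of ceh1 (-2.07), replicate 2 of eds16 (-1.71) or replicate 1 of ceh1/eds16 (-1.82). WRKY15 was also lost without replicate 2 of eds16 (0.7) or replicate 1 of ceh1/eds16 (0.79), and WRKY26 without replicate 1 of Col-0 (1.22), replicate 3 of eds16 (1.18) or replicates 1 (1.05) or 2 (1.13) of ceh1/eds16. The directions stayed as given in all of these. With libraries scaled to equal totals 1 positive and 5 negative interactions were called, and over all genes the positive share of the calls went from 63.3% to 35.9%, with the median at -0.097.

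Loss of ICS1 alone lowered a few members. Between eds16 and Col-0, 7 of the 58 were lower and 0 higher, with 2.96% of all tested genes lower and 1.63% higher. Those 542 and 299 genes became 303 and 117 without replicate 1 of Col-0, 170 and 67 without its replicate 2, 208 and 80 or 241 and 67 without replicate 1 or 2 of eds16, and 1029 and 752 without replicate 3 of ceh1/eds16. Without replicate 1 of ceh1 the higher genes numbered 182. For the direction higher, 3 members had an unadjusted p under 0.05 in limma, and edgeR and DESeq2 called 0. Over all tested genes 3695 had an unadjusted limma p under 0.05 in either direction, and edgeR and DESeq2 called 213 and 383 higher. Of group III 3 of 9 fell, WRKY38, WRKY54 and WRKY70, and of the others 4 of 49, WRKY15, WRKY25, WRKY47 and WRKY58. WRKY70 fell by 0.73 ± 0.11 on the log2 scale (limma adjusted p = 0.000789) and WRKY54 by 1.21 ± 0.16 (adjusted p = 0.000336), and these are the 2 calls that held under every alternative. WRKY38 fell by 1.23 ± 0.26 (adjusted p = 0.0129) and WRKY58 by 1.53 ± 0.36 (adjusted p = 0.0244). In all 7, every eds16 library was below every Col-0 library, and how many of all genes do so was not counted.

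The other 3 fell by less: WRKY47 by 0.98 ± 0.26 (limma adjusted p = 0.0402), WRKY25 by 0.68 ± 0.15 (adjusted p = 0.0161) and WRKY15 by 0.68 ± 0.14 (adjusted p = 0.0113). Without replicate 1 of eds16 only WRKY54 and WRKY70 remained called, without replicate 2 of Col-0 3 members, and without replicate 1 of Col-0 4 members. WRKY38 was lost without replicate 1 of Col-0 (adjusted p = 0.0538) or of eds16 (0.0534), WRKY58 without replicates 1 or 2 of Col-0 (0.0655 and 0.104) or 1 or 3 of eds16 (0.111 and 0.0703), WRKY25 without replicate 2 of Col-0 (0.101) or 1 of eds16 (0.0793), and WRKY15 without replicate 2 of Col-0 (0.0779) or replicates 1 or 2 of eds16 (0.0564 and 0.0711). WRKY47, whose Col-0 libraries ranged from 28.3 to 65.4, was lost in 9 of the 12 omissions, at values of -1.02 to -0.68, and kept only without replicate 3 of Col-0 or replicates 2 or 3 of ceh1/eds16. Without replicate 3 of ceh1/eds16, which enters only through the shared spread, 10 members were lower and 1 higher: WRKY53 (-0.61, adjusted p = 0.027), WRKY4 (-0.49, 0.0167) and WRKY33 (-0.53, 0.033) joined the first and WRKY42 (1.13, 0.0438) was the second. WRKY46 passed without replicate 3 of eds16 (-0.72, adjusted p = 0.0321, against -0.53 and 0.11 with it).

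Between ceh1/eds16 and ceh1, where both groups carry ceh1 and only the first lacks a working ICS1, 10 of the 58 members were lower and 4 higher, against 4.24% and 5.93% of all tested genes. Those 776 and 1084 genes became 410 and 614 without replicate 1 of ceh1, 455 and 666 without its replicate 2, and 1541 and 1706 without replicate 3 of ceh1/eds16. Group III held 5 of the 10 that fell, WRKY38, WRKY53, WRKY54, WRKY62 and WRKY70, out of 9, and the others held WRKY18, WRKY47, WRKY51, WRKY58 and WRKY60 out of 49. The median log2 fold change was -0.71 in group III and 0.04 in the others. In group III 0 members were higher, also by an unadjusted p under 0.05 in limma, in edgeR and in DESeq2. Over all tested genes edgeR called 1303 higher and DESeq2 1405. WRKY38 was 54.3-fold lower in the double mutant (-5.64 ± 0.26, limma adjusted p = 6.19e-10), WRKY62 14.4-fold lower (-3.51 ± 0.45, adjusted p = 7.36e-05) and WRKY51 8.2-fold lower (-3.03 ± 0.55, adjusted p = 0.00156). In the double mutant WRKY38 and WRKY62 overlapped Col-0, with libraries of 7.55 to 11.7 against 8.92 to 16.7 and of 2.16 to 3.9 against 1.78 to 2.58, whereas the lowest WRKY51 library of ceh1/eds16, at 30.2, was above the highest of Col-0, at 7.13.

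WRKY54 was 4.12-fold lower (-2.03 ± 0.16, limma adjusted p = 3.67e-07) and WRKY70 1.99-fold lower (-1.0 ± 0.11, adjusted p = 1.01e-05). Both stayed above Col-0 in every library of the double mutant. WRKY18 fell by 0.91 ± 0.14 (adjusted p = 0.000355), WRKY53 by 0.71 ± 0.17 (adjusted p = 0.013), WRKY60 by 0.59 ± 0.14 (adjusted p = 0.00929), WRKY47 by 0.94 ± 0.26 (adjusted p = 0.027) and WRKY58 by 1.57 ± 0.36 (adjusted p = 0.00908). Among the members that fell here, WRKY38, WRKY47, WRKY54, WRKY58 and WRKY70 were also called lower in eds16 than in Col-0. Of those only WRKY38 and WRKY54 had a called interaction. Among the smaller falls WRKY53 was lost without replicate 3 of ceh1 (-0.57, adjusted p = 0.0755) or replicate 1 of ceh1/eds16 (-0.66, 0.0546), WRKY60 without replicate 2 of ceh1 (-0.55, 0.0604) and WRKY58 without replicate 1 of ceh1 (-1.4, 0.0714). WRKY47 was lost without any 1 of the 3 ceh1 libraries (-1.02 to -0.87, adjusted p of 0.0552 to 0.122) or without replicates 1 (-0.92, 0.075) or 3 (-0.75, 0.0539) of ceh1/eds16. WRKY41 was called lower without replicate 3 of ceh1/eds16 (-0.86, adjusted p = 0.0442) and in edgeR (-0.68, 0.0475), against -0.68 and 0.118 with it in limma.

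The 4 members that were higher in ceh1/eds16 than in ceh1 were WRKY40, by 0.87 ± 0.24 (limma adjusted p = 0.0262), WRKY26, by 0.72 ± 0.21 (adjusted p = 0.0358), WRKY69, by 0.7 ± 0.20 (adjusted p = 0.0307) and WRKY33, by 0.61 ± 0.19 (adjusted p = 0.047). WRKY33 overlapped between the genotypes, with replicate 3 of ceh1 at 1879 above replicate 3 of ceh1/eds16 at 1742. None of the 4 held throughout: 0 were called without replicate 1 or replicate 2 of ceh1, 2 without replicate 3 of ceh1 or replicate 2 of ceh1/eds16, and 1 without replicate 1 of ceh1/eds16. WRKY69 was lost without replicate 3 of ceh1/eds16 (0.51, adjusted p = 0.0957), its highest library, and WRKY33 also without any eds16 library or replicate 3 of Col-0, none of which is in the contrast (0.61 each, adjusted p of 0.0573 to 0.0634). With libraries scaled to equal totals, which moves the median of all genes by -0.101 in this contrast, 2 were higher and 10 lower, and the share of higher among all called genes went from 58.3% to 38.4%. WRKY6 was called higher without replicate 3 of ceh1/eds16 (0.71, adjusted p = 0.0386), and WRKY45 (0.71, 0.023) and WRKY8 (0.66, 0.0486) without replicate 1 of Col-0. WRKY45 and WRKY8 were also called higher with no library of the contrast left out. Their adjusted p were 0.00382 and 0.013 in DESeq2, and 0.013 and 0.028 in edgeR. In limma on only the groups compared they were 0.0246 and 0.0387. The members near no change included WRKY46 (0.07 ± 0.18), WRKY75 (0.05 ± 0.43) and WRKY55 (0.01 ± 0.60), and the sign of WRKY46 and of WRKY55 flipped under equal totals (-0.03 and -0.08). The interval around WRKY75 is wide, and none of the 3 is shown to be equal between the genotypes.

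**Figure D4:**
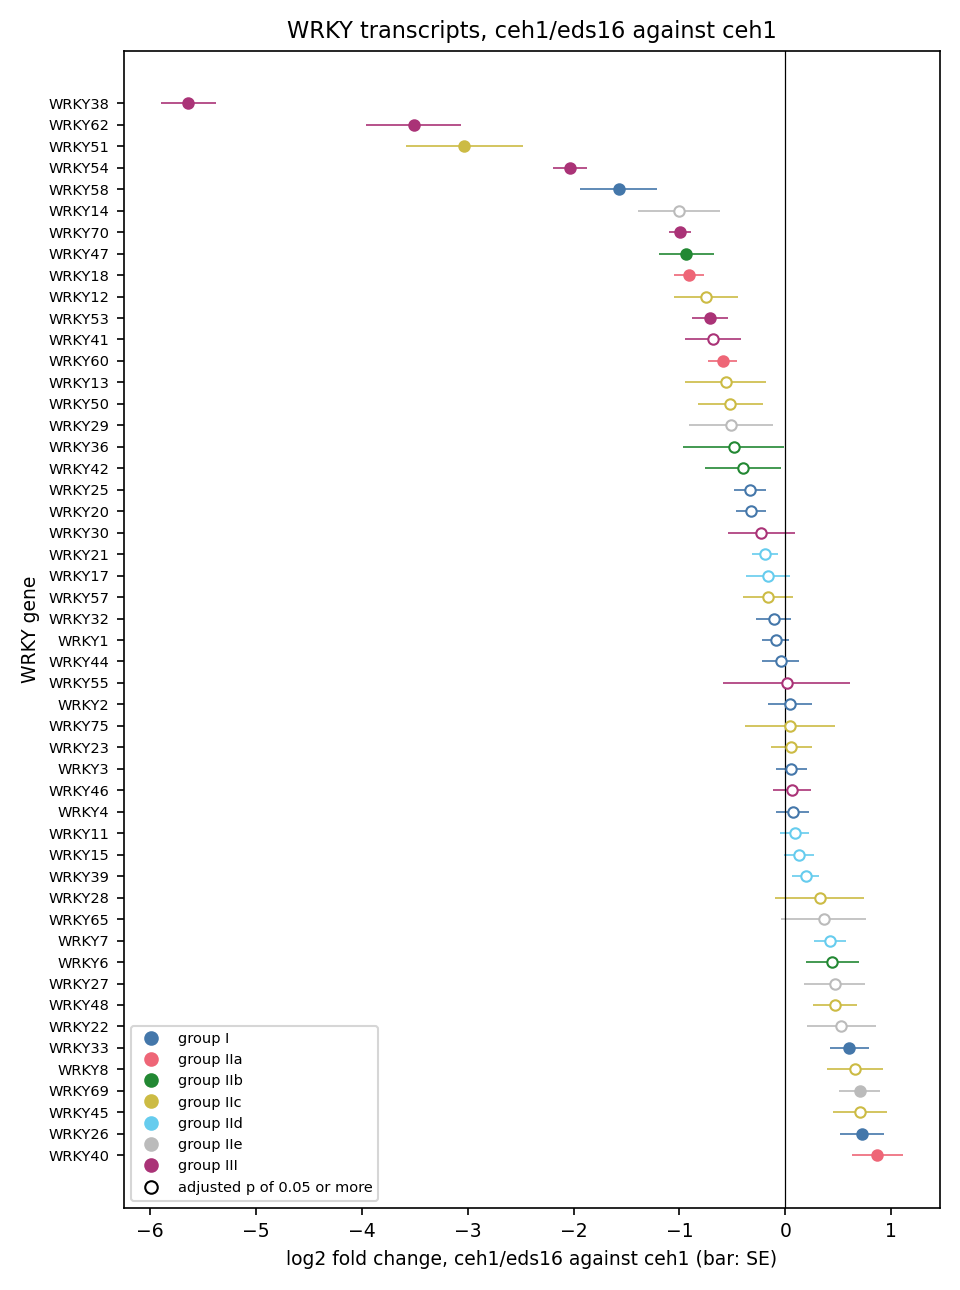
Log2 fold change of the 50 tested WRKY genes in ceh1/eds16 against ceh1 (horizontal axis, with SE bars), sorted by value and coloured by group of the family, with filled points for an adjusted p under 0.05. Filled points run from -5.64 (WRKY38) to 0.87 (WRKY40), with 10 on the lower and 4 on the higher side.

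The order of transcript levels within the family shifted with genotype. Per kilobase of exon, the mean normalized count was highest for WRKY70 in all 4 genotypes, at 520.2 for the wild type, 2273 for ceh1, 312 for eds16 and 1139.7 for the double mutant. In Col-0 it was followed by WRKY3 (207) and WRKY15 (204), 2 genes whose levels differ by less than their spread, and in eds16 by WRKY3 (227) and WRKY1 (151). In ceh1 the next were WRKY46 (1039.8), WRKY54 (748) and WRKY33 (732), the last 2 closer than the spread of their libraries. In ceh1/eds16 WRKY33 (1108) and WRKY46 (1080.5) came within the spread of the WRKY33 libraries of WRKY70, and WRKY54 stood at 182. WRKY1 was not called in any of the 5 tests.

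Transcripts of genes whose products act with or on WRKY proteins were read in the same libraries. Of 4 VQ-motif proteins known as WRKY partners, 3 were higher in ceh1 and all 4 in ceh1/eds16 against eds16, where 25.2% and 22.1% of all tested genes were higher. SIB1, which activates WRKY33, read 90.4, 121 and 106 in the wild type, 614, 647 and 606 for ceh1, 51.8, 63.9 and 58 for eds16 and 449, 377 and 602 in the double mutant, a rise of 2.56 ± 0.16 in ceh1 (limma adjusted p = 4.06e-09). JAV1, a repressor of jasmonate defence that binds WRKY51, rose by 3.15 ± 0.24 in ceh1 (adjusted p = 2.52e-08) and SIB2 by 1.07 ± 0.21 (adjusted p = 0.000429). MKS1, which ties WRKY33 to the kinase MPK4, read 23.8, 23.2 and 33.5 in the wild type, 38.4, 31.1 and 36.9 for ceh1, 20.2, 7.98 and 14.5 for eds16 and 46.2, 53.9 and 67.4 in the double mutant. It was not called in ceh1 (0.4 ± 0.29, adjusted p = 0.26) and rose in ceh1/eds16 by 1.97 ± 0.29 (adjusted p = 3e-05). The MKS1 interaction was 1.57 ± 0.41 (limma adjusted p = 0.0372), with an adjusted p of up to 0.107 when single libraries were left out.

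Of 12 kinases upstream of WRKY proteins, 8 were higher in ceh1 and 1, MPK6, was lower, and 10 were higher in ceh1/eds16 against eds16. Over all tested genes 25.2% were higher and 25% lower in ceh1, and 22.1% were higher in the double mutant against eds16. MKK1, of the MEKK1 to MPK4 cascade, rose by 1.14 ± 0.13 in ceh1 (limma adjusted p = 2.19e-06), the calcium-dependent kinases CPK6 by 1.08 ± 0.14 (adjusted p = 9.71e-06) and CPK4 by 0.87 ± 0.12 (adjusted p = 1.57e-05). MPK3, which phosphorylates WRKY33, read 1191, 1483 and 1351 in the wild type, 2314, 2556 and 2818 for ceh1, 933, 1043 and 979 for eds16 and 3639, 3633 and 3087 in the double mutant, and rose by 0.93 ± 0.12 in ceh1 (adjusted p = 7.55e-06). The MPK3 interaction was called, at 0.872 ± 0.169 (limma adjusted p = 0.0072). CPK5, also counted as higher in ceh1, rose by 0.33 ± 0.12 (limma adjusted p = 0.0302). Its adjusted p reached up to 0.124 when single libraries were left out. The MPK6 call, at -0.27 ± 0.11 (adjusted p = 0.0478), was lost without any 1 Col-0 library (adjusted p of 0.0701 to 0.109), replicates 1 or 3 of ceh1 (0.207 and 0.0875), replicates 1 or 3 of eds16 (0.0638 and 0.0529), or replicates 1 or 2 of ceh1/eds16 (0.0537 and 0.0524). Of 3 other regulators, NPR1 rose in both contrasts, by 0.57 ± 0.14 and 0.55 ± 0.14 (adjusted p = 0.00308 and 0.00444), and HDA19, the deacetylase that WRKY38 and WRKY62 bind, and UPL5, the ligase that removes WRKY53, were not called in ceh1.

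Of 14 genes described in the literature as WRKY targets, ICS1 among them, 10 passed the filter, and in ceh1 9 were higher and 1, PHO1, was lower, while 8 rose in ceh1/eds16 against eds16. ICS1 was the target that rose in ceh1 and was not called there (0.43 ± 0.23, limma adjusted p = 0.145). It is itself the gene mutated in both lines of the second contrast, so the lower count there is tied to the genotype. The shares of all tested genes are the same 25.2% higher and 25% lower for ceh1, and 22.1% higher without ICS1. The PHO1 call (-0.61 ± 0.21, limma adjusted p = 0.0248) had an adjusted p of up to 0.128 when single libraries were left out. PAD3, the last enzyme of camalexin synthesis and a WRKY33 target, read 26.2, 42.8 and 34.8 in the wild type, 494, 499.5 and 659 for ceh1, 46.1, 31.9 and 46.6 for eds16 and 1281, 1089 and 1162 in the double mutant, a rise of 3.97 ± 0.19 with and 4.81 ± 0.19 without ICS1 (limma adjusted p = 1.56e-10 and 9.75e-12). Its interaction was not called (0.84 ± 0.27, adjusted p = 0.0805), nor was that of CYP71A13 (0.02 ± 0.35, adjusted p = 0.977). CYP71A12, of the same pathway, read 8.32, 12.5 and 12.9, 131, 115 and 154, 5.76, 5.32 and 12.4 and 389.5, 396 and 363 in the same order, with an interaction of 2.06 ± 0.37 (adjusted p = 0.00416). Both were highest in the double mutant, in every library. PR1, a salicylic acid marker, ran the other way at 181, 409 and 343, 8934, 8031 and 5199.5, 40.3, 53.2 and 36.3 and 105, 59.3 and 92.7, with an interaction of -3.66 ± 0.39 (adjusted p = 6.2e-05). EDS1, which acts upstream of salicylic acid, rose by 1.37 ± 0.11 in ceh1 (adjusted p = 4.43e-08). Its interaction was 0.635 ± 0.155 (limma adjusted p = 0.0274), with an adjusted p of up to 0.101 when single libraries were left out. Of the 10 targets tested, 3 had a positive and 1 a negative interaction, against 3.08% and 1.79% of all tested genes. ABI4 was at 0 in all libraries, and PHT1;1, JAZ8 and ABI5 were below the filter.

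Markers of other organs were read in the same libraries. The 4 root markers summed to 116 to 192 in wild-type libraries, 737 to 957 for ceh1, 191 to 222 for eds16 and 717 to 888 in the double mutant, and PYK10 made up nearly all of this, with EXPA7 at 0 in every library and WER under 5. The 5 flower markers summed to 87.6 to 116 in wild-type libraries, 17.9 to 50.7 for ceh1, 148 to 173 for eds16 and 37.8 to 62.3 in the double mutant. The leaf markers fell in ceh1 as given above, and summed to 237801 to 245866 for eds16 and 114886 to 182389 for the double mutant. The 3 trichome markers summed to 86.8 to 126 over all libraries. The root sum is higher and the leaf and flower sums are lower in both lines with ceh1, as the WRKY rises are, and their part in the WRKY results was not tested.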

How the data were processed

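The deposited table holds 1 column of signal values for each library, which are gene read counts that the authors divided by a size factor. Per the submitters' processing notes TopHat2, DESeq2 and the build TAIR10 were used, while versions and counting settings are not given in the sources used. Dividing each of the 12 columns by its smallest step gave whole reads for 100% of values within 0.01, so depth could be recovered, and 0 columns were left unused.

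From these values log2(normalized count + 1) was computed and tested with the variance trend of limma 3.58.1 (R 4.3.3), over the 18289 genes with a mean of at least 10, in 1 fit of all 4 genotypes with 8 residual and 8.69 prior degrees of freedom. The count test of edgeR 4.0.16 on the recovered reads called 4567 genes higher and 4742 lower in ceh1 against Col-0, and DESeq2 1.42.0 was run as well. The scripts were checked on simulated data. The alternatives were other pseudocounts, filters, scalings, variance models and tools, a replicate block, a fit of only the groups compared, and leaving out each library.

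The 58 members, the groups of the family, the other gene lists and the marker lists were chosen with earlier results of these data known. Values in every library are given for groups III and IIa, for members called in the interaction, and for up to 8 called members with the largest change in each direction of each other comparison. Of the other lists up to 4 genes with the lowest adjusted p in ceh1 against Col-0 are named. CPK5, MPK6, PHO1, ICS1 as a target and the list genes below the filter were named after their values were seen. Gene positions and promoters are from the RefSeq annotation of TAIR10.1, in which 56 of 58 members carry the same symbol.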

Additional observations from a re-analysis of the deposited data

Results flagged for a closer look

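In 6 members the effect of ceh1 was called different between the background with ICS1 and the one without it, by limma's test of the interaction. Of all tested genes 3.08% were called positive and 1.79% negative. The WRKY38 call alone held under every alternative, and the others were near the threshold. The log2 fold change was lower without ICS1 for WRKY38 (-4.41), WRKY14 (-2.01) and WRKY54 (-0.82), and higher for WRKY26 (1.17), WRKY33 (1.14) and WRKY15 (0.81), all on the log2 scale. For WRKY14 the change in ceh1 against Col-0 was not called (0.69 ± 0.39, limma adjusted p = 0.152), and its libraries were 8.32, 5.35 and 10.3 for the wild type, 15.7, 11.9 and 12 for ceh1, 15.4, 25.3 and 11.4 for eds16 and 4.45, 9.71 and 4.88 in the double mutant.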

How the results depend on the processing

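Of 2866 alternative values for the named results, 2686 kept their direction and their side of the threshold, 144 lost it, 11 gained it and 25 reversed. Among the calls, 9 of 9 group III rises in ceh1 against Col-0 held in every alternative in which the gene was tested. With a filter at a mean of 50, where fewer members are tested, 5 group III members were higher in each contrast of ceh1 with its control, and 23 members were higher and 0 lower in ceh1/eds16 against eds16. Of the 14668 genes tested there 3766 were higher in ceh1. In ceh1/eds16 against eds16 3326 of these genes were higher and 2919 lower. Positive interactions numbered 1 with equal library totals and 0 without the variance trend. Negative ones numbered 5 with a pseudocount of 5 or equal totals and 1 with no filter, the last also within group III. Members higher in ceh1/eds16 than in ceh1 numbered 1 with no filter or no trend and 2 with equal totals. Over all genes tested, positive interactions numbered 328 with equal totals and 334 without the trend. Negative ones over all genes numbered 344 with a pseudocount of 5, 586 with equal totals and 201 of 29487 with no filter. Genes higher in ceh1/eds16 than in ceh1 numbered 972 with no filter, 864 with no trend and 739 with equal totals. The cause was not tested beyond the construction of each alternative. The replicate numbers did not pair the libraries, with correlations of -0.448 to 0.118 between same-numbered ones. With a replicate block 1 negative interaction was called, also within group III 1, and 2 members were higher in ceh1/eds16 than in ceh1. Over all tested genes that block gave 200 negative interactions and 881 genes higher in ceh1/eds16 than in ceh1.

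When each library was left out in turn, 32 to 36 members were higher in ceh1, and 34 to 36 higher and 1 to 3 lower in ceh1/eds16 against eds16, with 8 to 9 of group III higher. Interactions were positive for 0 to 4 and negative for 1 to 6 members, 1 to 3 in group III. In eds16 against Col-0 0 to 1 were higher and 2 to 10 lower, 2 to 4 in group III, and in ceh1/eds16 against ceh1 0 to 6 were higher and 8 to 10 lower, 4 to 6 in group III. Of the 18289 tested genes 3720 to 5202 were higher in ceh1. In ceh1/eds16 against eds16 3482 to 4118 of them were higher and 3031 to 3874 lower. Their interactions were positive for 241 to 1684 and negative for 105 to 1329. In eds16 against Col-0 67 to 752 genes were higher and 170 to 1029 lower. In ceh1/eds16 against ceh1 614 to 1706 were higher and 410 to 1541 lower.

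Reversals were seen only in values near 0 that were not called. The WRKY55 interaction was 0.08 with a pseudocount of 5 and 0.309 in edgeR, and -0.475 to 0.859 over the left-out libraries. WRKY55 in eds16 against Col-0 was -0.072 and -0.317 in the same alternatives and -0.846 to 0.487 over the libraries. In ceh1/eds16 against ceh1 WRKY55 was -0.026 with equal upper quartiles, -0.077 with equal totals, -0.008 in edgeR, -0.002 in DESeq2 and -0.226 to 0.16 over the libraries, and WRKY46 was -0.026 with equal totals and -0.016 to 0.198. Leaving out libraries gave -0.261 to 0.04 for the WRKY53 interaction, and in eds16 against Col-0 -0.041 to 0.361 for WRKY40 and -0.091 to 0.3 for WRKY41. Depth limits the members with few reads in Col-0 or eds16, such as WRKY62 with 5 and 1.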
